A study of Canis lupus familiaris with 18 samples.

Results

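The 5 most highly proliferating of 16 canine high grade oligodendrogliomas (HGO) were compared with the 5 most weakly proliferating, to ask which other genes differ between tumors of high and low proliferation. Proliferation was read from RNA and not from histology. Each tumor was scored as the mean z-score, over the 16 tumors, of the log2 CPM of MKI67, TOP2A, CDK1, AURKB and BUB1. CPM are counts scaled to a common library size after TMM normalization, which corrects for differences in library composition. The tumors were thus chosen by measured values, the 5 score genes were left out of every result, and no test was made on them. The series holds 18 RNASeq libraries of formalin-fixed, paraffin-embedded tissue, labelled as 11 French bulldogs, 4 boxers and 3 Boston terriers. French bulldog 6 was left out of the ranking, since OLIG2, which defines the lineage, was at 0 CPM there and the macrophage gene CD163 at 3117 CPM. With it kept, its score of 1.88 was the highest, it took the place of boxer 5, and 170 genes were higher and 37 lower in place of the 148 and 77 given further on. The labels give French bulldogs 2 and 8 the same case number, and their counts were summed as 1 tumor (French bulldog 2/8).

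The highly proliferating group was made up of French bulldogs 2/8, 4 and 1, Boston terrier 7 and boxer 5. The weakly proliferating group was made up of boxers 1 and 3, French bulldogs 7 and 9 and Boston terrier 6. The other 6 tumors, called the middle tumors, entered neither group. All were labelled as prosencephalic (forebrain) HGO, were resected from pet dogs before trial treatment, and differed in no labelled agent or genotype. Age, sex and location were not used here. The RNA came from scrolls cut through a paraffin block, so every cell type in the section contributed. In such bulk samples, fewer cells of a type and less RNA per cell cannot be told apart.

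A cell that divides copies its DNA in S phase and separates the copies in mitosis. The S phase genes are switched on by E2F transcription factors, which the pocket protein RB1 and its relatives hold in check until cyclin-dependent kinases inactivate them. Genes of mitosis are switched on later by B-Myb (MYBL2) and FOXM1 together with the MuvB complex. Ki-67, the protein of MKI67, is the usual histological marker of dividing cells in gliomas, which range widely in growth fraction.

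The score ran from 1.59 in French bulldog 2/8 to -1.33 in French bulldog 9. In the highly proliferating group it was 1.27 in French bulldog 4, 0.971 in Boston terrier 7, 0.968 in French bulldog 1 and 0.498 in boxer 5. In the weakly proliferating group it was -0.818 in boxer 1, -0.823 in French bulldog 7, -0.907 in Boston terrier 6 and -0.998 in boxer 3. Just outside the groups lay French bulldog 3 at 0.327 and French bulldog 11 at -0.656. MKI67 stood at 704, 232, 220, 207 and 125 CPM in the highly proliferating tumors, in the order of their scores. In the weakly proliferating tumors it stood at 47.4, 35.3, 42.9, 43.6 and 23.4 CPM. AURKB, the kinase of the chromosomal passenger complex, followed the other score genes least closely. It had 18.5 CPM in French bulldog 2/8, the tumor of the highest score, and 26.6 CPM in French bulldog 11, which lay next to the weakly proliferating group.

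**Figure D1:**
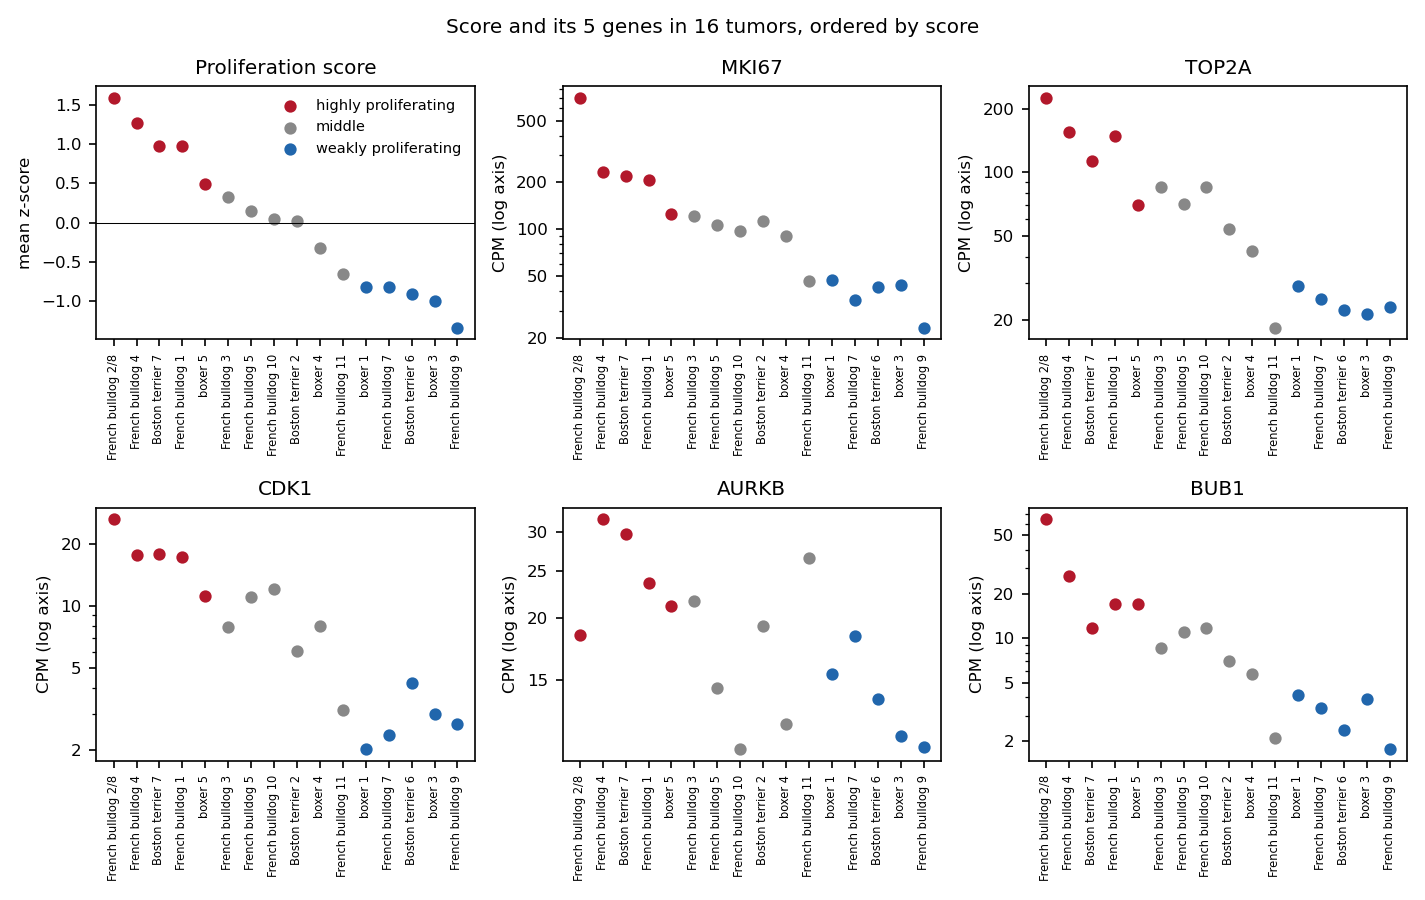
Proliferation score (mean z-score) and CPM (log axis) of its 5 genes in each of 16 tumors, ordered by score on the x axis, with 1 point per tumor and the groups in color. MKI67 falls from 704 to 23.4 CPM along the order, while AURKB is at 26.6 CPM in French bulldog 11, above 3 of the 5 highly proliferating tumors.

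Between 8212452 and 17924670 reads were assigned to genes per tumor, and 3 counts corresponded to 0.167 to 0.365 CPM. Breed was mixed in both groups, with 3 French bulldogs of 5 in the highly and 2 of 5 in the weakly proliferating group (Fisher's exact test, two-sided, p = 1). The labels name no sequencing batch, but their library numbers form sets. The French bulldogs hold numbers 1 to 12, 4 comparison dogs 18 to 21, and 3 comparison dogs again 1 to 3. The last set held 2 highly and 1 weakly proliferating tumors. The set of 18 to 21 held 0 highly and 2 weakly proliferating tumors, so set and group cannot be told apart in it. With these sets as a covariate, edgeR called 71 genes higher and 112 lower in place of the 148 and 77 given further on. The total, the number of genes with a count, the share of the most counted gene and the share of small RNAs had exact permutation p-values of 0.175, 0.183, 0.397 and 0.762 (two-sided, smallest possible p = 0.00794). OLIG2, the defining transcription factor of the oligodendrocyte lineage, was present in every tumor, with 125 to 291 CPM in highly and 91.9 to 186 CPM in weakly proliferating tumors.

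Of 16376 genes tested, 148 (0.904%) were higher and 77 (0.470%) were lower in highly proliferating tumors at an adjusted p-value under 0.05 (edgeR quasi-likelihood F test, two-sided, Benjamini-Hochberg adjustment over all genes tested). The balance of higher and lower genes depended on the method, with 466 and 954 called by DESeq2, 213 and 374 by limma-voom, and 124 and 133 by edgeR with breed as a covariate. At an unadjusted p-value under 0.05, 1177 genes (7.19%) were higher and 1782 (10.9%) were lower. The groups did not overlap for 426 genes (2.60%) that were higher and for 434 (2.65%) that were lower. Among the called genes, the groups did not overlap for 143 of the 148 and for 76 of the 77. The p-values measure the spread between tumors of different dogs. The counts depended on single tumors. Of 181 called genes followed one by one, 71 were called in each of the 10 fits that left out 1 tumor. Each fit that left out 1 tumor gave 76 to 209 higher and 11 to 303 lower genes. The higher genes numbered 95 without Boston terrier 7, 98 without French bulldog 7, 78 without French bulldog 9 and 76 without boxer 3. The lower genes numbered 303 without French bulldog 4, 140 without boxer 5, 46 without French bulldog 2/8, 34 without French bulldog 1, 34 without Boston terrier 6, 24 without boxer 3, 19 without Boston terrier 7, 17 without French bulldog 7 and 11 without French bulldog 9.

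The 6 middle tumors, which the fit did not use, were compared as the 3 of higher against the 3 of lower score. Their order came from the same 5 score genes, and 80 of the 148 higher genes were in a cell cycle list. A shared direction is thus partly built in for the higher genes and is given as a description. For 139 of the 148 higher genes (93.9%) the middle tumors differed in the same direction, against 59.9% of all genes with a fold change above 0. For the 77 lower genes the direction was shared by 45 (58.4%), against 55.1% of all genes with a fold change below 0. Within the French bulldogs alone and within the boxers and Boston terriers alone, with 5 tumors in each fit, edgeR called 0 genes, while 2518 and 1393 genes had an unadjusted p-value under 0.05. The median log2 fold change of the mitosis genes was 2.03 and 1.52 in these fits. The difference of the effect between French bulldogs and the comparison breeds was called for 0 of 16376 genes by edgeR (767 at an unadjusted p-value under 0.05, smallest adjusted p = 0.922).

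Mitosis genes made up the largest listed block among the higher genes. They share biology with the score genes, so their values are a description and carry no test. Of 64 mitosis genes measured, 62 had a fold change above 0, 47 were among the 148 called genes and 0 among the 77, and the median log2 fold change was 1.92, against 0.018 over all genes tested. The called share over all genes was 0.904%, from which nothing is read for this list. With the library number sets as a covariate, 30 of the 64 were called, where 71 of all genes were called higher. Among 19 kinesins and spindle proteins, 17 were called, with a median of 2.17. Among 15 centromere and kinetochore proteins 10 were called, and among 7 mitotic kinases 6 were called, with medians of 1.95 and 2.09.

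ASPM, which focuses the spindle poles, had 182, 164, 102, 91.4 and 85.9 CPM in highly proliferating tumors and 23.3, 30.2, 28.2, 29.6 and 23.9 CPM in weakly proliferating tumors. The groups lay far apart, and the weakly proliferating tumors were close to each other. KNL1, the kinetochore scaffold that recruits BUB1, had 177, 75.4, 78.7, 72.4 and 47.9 CPM against 15.2, 15.8, 18.5, 16.5 and 8.40 CPM. French bulldog 2/8 was the highest of all 16 tumors in KNL1. The groups did not overlap in 53 of the 64 mitosis genes, against 2.60% of all genes in this direction. French bulldog 11, outside the weakly proliferating group, had the lowest list mean of all tumors (-1.10, against -0.841 to -0.882 in the 5 weakly proliferating tumors).

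ANLN and CIT, both of cytokinesis, were the mitosis genes with a fold change below 0. ANLN, the contractile ring protein anillin, had 42.9 to 59.3 CPM in highly proliferating tumors and 25.7 to 41.8 CPM in 4 of the weakly proliferating tumors, but 605 CPM in French bulldog 9, and its log2 fold change was -1.49 over all 10 tumors and 0.83 in the boxers and Boston terriers alone. That tumor also stood highest of the 16 in the myelin list. Oligodendrocytes are known to use ANLN in myelin, but whether this bears on the value of that 1 tumor was not tested. The remaining cytokinesis genes CEP55, ECT2 and RACGAP1 were called higher.

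DNA replication genes were higher by a smaller amount. All 44 measured had a fold change above 0, 16 were called higher (0.904% over all genes, from which nothing is read), and the median log2 fold change was 1.31. Without boxer 3, 10 of them were called, where 76 of all genes were called higher. With the library number sets as a covariate 7 were called, where 71 of all genes were called higher. The 11 licensing factors, which load the replicative helicase onto origins, had a median of 1.83 and 7 calls. The 13 polymerase and clamp genes had a median of 0.87 and 2 calls, PCNA and POLE. CLSPN, the fork protein claspin, had 74.5, 25.0, 38.5, 27.4 and 15.1 CPM in highly and 2.99, 6.20, 4.82, 4.18 and 4.61 CPM in weakly proliferating tumors, without overlap. MCM10, which acts on the loaded helicase, had 57.8, 21.0, 23.5, 26.3 and 23.7 CPM against 5.20, 7.39, 8.39, 6.36 and 8.81 CPM. In MCM10, French bulldog 2/8 stood above the other 4 highly proliferating tumors, which were close to each other.

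Genes of homologous recombination and crosslink repair followed DNA replication. All 20 measured had a fold change above 0, 10 were called higher (0.904% over all genes, likewise given without a reading), and the median was 1.51. BRCA2, which acts in the repair of double-strand breaks, had 158, 68.4, 83.4, 68.5 and 68.8 CPM in highly and 31.9, 26.9, 20.1, 26.1 and 18.4 CPM in weakly proliferating tumors. The called genes also included BRCA1, EXO1, RAD54L, UBE2T and the Fanconi anemia genes FANCA, FANCB, FANCD2 and FANCI. In the 10 fits that left out 1 tumor, RAD54L and FANCD2 were called in 10 each, FANCA in 6, and BRCA1 and FANCI in 5 each. UBE2T was called in 4, EXO1 in 3 and FANCB in 2.

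The upstream regulators were divided. Of 33 measured, 7 were called higher (0.904% over all genes), 25 had a fold change above 0 and the median was 0.42. MYBL2 had 37.4, 16.1, 14.9, 17.5 and 9.68 CPM in highly and 1.54, 3.37, 3.90, 2.90 and 2.99 CPM in weakly proliferating tumors. FOXM1, E2F7, E2F8, CCNA2, CDK2 and CDKN2C, an inhibitor of CDK4 and CDK6, were also called. In the 10 fits that left out 1 tumor, MYBL2 was called in 10, FOXM1 in 5, CDK2 in 4 and E2F7, CCNA2 and CDKN2C in 3 each. The groups overlapped in CDKN2C. The pocket proteins RB1 and RBL2 had log2 fold changes of -0.15 ± 0.18 (SE) and -0.21 ± 0.22, and CDKN1A, the p53-induced inhibitor p21, had -0.12 ± 0.52. RBL1, the remaining pocket protein and itself an E2F target, had 26.8 to 79.2 CPM in highly and 17.2 to 19.3 CPM in weakly proliferating tumors (1.22 ± 0.27) without being called.

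The D-type cyclins, which link growth signals to the cell cycle, did not follow the groups. CCND1 had 179, 39.4, 79.5, 1166 and 46.1 CPM in highly and 42.0, 67.3, 41.8, 48.5 and 10.5 CPM in weakly proliferating tumors. CCND2 had 466, 1079, 998, 67.8 and 420 CPM against 870, 592, 662, 874 and 683 CPM. French bulldog 1 was the tumor of the highest CCND1 and of the lowest CCND2 among the 10, and for either gene the groups overlapped.

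**Figure D2:**
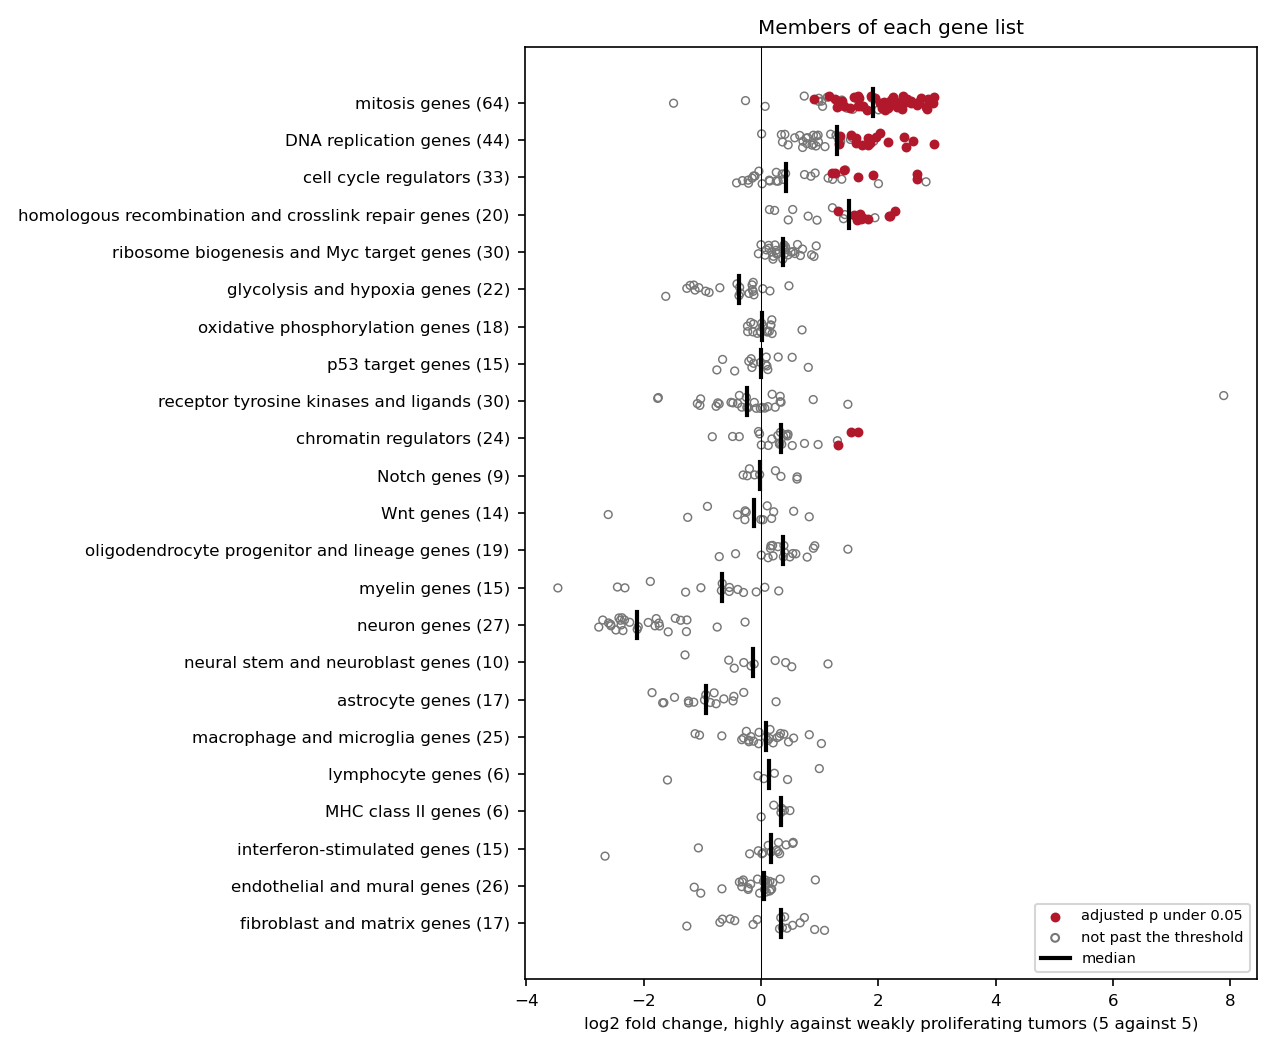
Log2 fold change of each measured member (x axis) for the 23 lists with at least 6 members tested (y axis, number of members in brackets), with called genes filled in red and the list median as a bar. Called genes lie in the 4 cell cycle lists and among the chromatin regulators, and the neuron list has the lowest median, -2.11, with no member called.

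Outside the cell cycle lists, 47 genes with a symbol were called higher, and most of the 12 with the smallest p-values are known from division or S phase. GTSE1, a microtubule protein of G2 and mitosis, had 14.6, 15.7, 13.6, 11.6 and 7.96 CPM in highly and 1.73, 2.19, 2.58, 2.45 and 1.29 CPM in weakly proliferating tumors. DNA2, a nuclease and helicase that processes DNA ends and flaps, had 33.5, 18.6, 17.9, 19.3 and 11.5 CPM against 4.53, 3.56, 3.41, 2.72 and 1.78 CPM. PLK4, the kinase that starts centriole duplication, had 17.2, 12.1, 9.33, 14.4 and 7.64 CPM against 2.22, 3.28, 2.74, 3.54 and 2.50 CPM. The groups overlapped in none of these 3 genes. The log2 fold changes were 2.59 ± 0.30 (SE) for GTSE1, 2.62 ± 0.34 for DNA2 and 2.05 ± 0.29 for PLK4. The rest of the 12 were CCNB3, KNTC1, CDCA2, IQGAP3, DSN1, CDCA3, DEPDC1, CCNF and PCLAF. Among the 12 with the largest fold changes were also TROAP, ESCO2, PIMREG, PARPBP and TONSL, known from mitosis, sister chromatid cohesion or DNA repair. Small RNAs were left out of this ranking, and 1 of 19 tested loci of U1, the small nuclear RNA of the spliceosome, was called too. That U1 locus had 34.2 to 344 CPM in highly and 15.4 to 41.7 CPM in weakly proliferating tumors, with overlap and with 801 CPM in the middle tumor French bulldog 5. Near-identical U1 copies share reads, so the value is uncertain. Since the genes of division and S phase belong to the same process as the score, their p-values are not given.

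The histone genes H1-5, H4C8 and H2AC18 were called higher. H1-5, a linker histone, had 49.6, 31.7, 21.8, 35.9 and 14.3 CPM in highly and 1.16, 6.57, 4.24, 7.90 and 2.91 CPM in weakly proliferating tumors. The groups did not overlap in H1-5, the difference was 2.71 ± 0.48 (SE) on the log2 scale, and the call was lost without French bulldog 9 or without Boston terrier 6. In the 10 fits that left out 1 tumor, H4C8 was called in 5 and H2AC18 in 2. Histone synthesis belongs to S phase, so no p-value is given. The libraries were made by ribosomal depletion and not by selection of polyadenylated RNA, and histone genes have near-identical copies among which reads may be divided, so the values of single histone genes are uncertain.

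Of 24 chromatin regulators tested, 3 were called higher and 0 lower, against 0.904% and 0.470% of all genes. EZH2, the methyltransferase of Polycomb repressive complex PRC2, had 92.6, 71.1, 68.4, 79.4 and 40.5 CPM in highly and 27.8, 17.3, 32.0, 18.9 and 12.6 CPM in weakly proliferating tumors. The groups did not overlap, and the difference was 1.66 ± 0.28 (SE) on the log2 scale (edgeR, adjusted p = 0.0152). The adjusted p of EZH2 was 0.0534 without boxer 3 and 0.0503 without French bulldog 7. LMNB1, which encodes the nuclear envelope protein lamin B1, had 179, 112, 111, 147 and 56.4 CPM against 37.9, 56.2, 55.3, 45.2 and 42.2 CPM (1.32 ± 0.27, edgeR adjusted p = 0.0346). Boxer 5 lay next to the weakly proliferating tumors in LMNB1, and the call held without boxer 5 or French bulldog 4 only. Without each of the other 8 tumors the adjusted p was 0.0622 to 0.0995, the latter without French bulldog 9. HMGB2, a chromatin protein of dividing cells, was the other called regulator (1.54 ± 0.30), with the call held in 3 of the 10 fits that left out 1 tumor. EZH2 and LMNB1 are known E2F targets, so their p-values are not independent of the score. EZH1, the relative of EZH2 found in resting cells, had a log2 fold change of -0.37 ± 0.26.

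Of the 77 lower genes, 55 had a symbol and 0 were in a cell cycle list. CYRIA, a regulator of the actin cytoskeleton that binds RAC1, had 27.3, 38.6, 28.5, 33.2 and 35.6 CPM in highly and 78.7, 80.2, 52.8, 69.6 and 91.5 CPM in weakly proliferating tumors. PELI3, a ubiquitin ligase of innate immune signaling, had 8.40, 13.7, 10.3, 12.6 and 11.6 CPM against 29.1, 26.9, 31.5, 20.4 and 39.5 CPM. CCDC85A had 3.02, 4.71, 1.81, 3.90 and 5.59 CPM against 15.9, 17.4, 12.1, 10.6 and 20.4 CPM. In each of these 3 genes the groups stood apart.

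CYRIA was lower by a log2 fold change of -1.23 ± 0.19 (SE, edgeR adjusted p = 0.00938). The values were -1.42 ± 0.22 (edgeR adjusted p = 0.00986) for PELI3 and -2.04 ± 0.33 (edgeR adjusted p = 0.0126) for CCDC85A. All 3 were called in each of the 10 fits that left out 1 tumor. In the middle tumors the difference between the upper and lower 3 was -0.04 for CYRIA, -0.49 for PELI3 and 0.79 for CCDC85A on the log2 scale, so CCDC85A went the other way there.

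TTC39A had 6.81, 3.60, 4.41, 5.38 and 6.35 CPM in highly and 15.8, 14.1, 10.1, 13.5 and 14.1 CPM in weakly proliferating tumors (-1.38 ± 0.25, edgeR adjusted p = 0.0219). MMP24, a membrane-bound metalloproteinase, had 0.494, 2.40, 0.778, 1.40 and 1.40 CPM against 4.34, 6.93, 4.74, 8.35 and 13.3 CPM. It passed the count filter through the weakly proliferating tumors, so its p-values and fitted fold change are not given. GNAL, a G protein alpha subunit of olfactory and striatal neurons, had 4.61, 22.4, 8.90, 2.73 and 13.7 CPM against 48.0, 86.2, 63.2, 44.3 and 75.9 CPM (-2.64 ± 0.49, edgeR adjusted p = 0.0256). The groups did not overlap in any of these genes. These calls depended on single tumors. Without Boston terrier 7, French bulldog 9, boxer 3 or French bulldog 7, TTC39A had edgeR adjusted p-values of 0.0624, 0.0647, 0.0596 and 0.0598. MMP24 was called in 5 of the 10 fits that left out 1 tumor. GNAL had edgeR adjusted p-values of 0.0510 without French bulldog 2/8, 0.0707 without Boston terrier 7 and 0.0630 without French bulldog 9. They were 0.0537 without Boston terrier 6 and 0.0600 without French bulldog 7.

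Some of the lower genes had few counts. HPN, a membrane serine protease, had 2, 2, 1, 1 and 2 counts in highly proliferating tumors, at or under the limit of 3, and 9 to 47 in weakly proliferating tumors. The summed counts were 8 and 142, a ratio per total of 21.3 (95% exact interval 10.5 to 50.3, counting error only). PDE4C, a cyclic AMP phosphodiesterase, had 4 to 13 counts against 42 to 70, a ratio of 8.64 (6.19 to 12.3). CNGB1, a cyclic nucleotide-gated channel subunit, had 1 to 8 counts against 17 to 46, a ratio of 9.09 (5.62 to 15.5). These 3 genes passed the count filter through the weakly proliferating tumors, so that a difference was built into their being tested. Their p-values are not given, nor are fitted fold changes, which depend on the prior count.

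**Figure D3:**
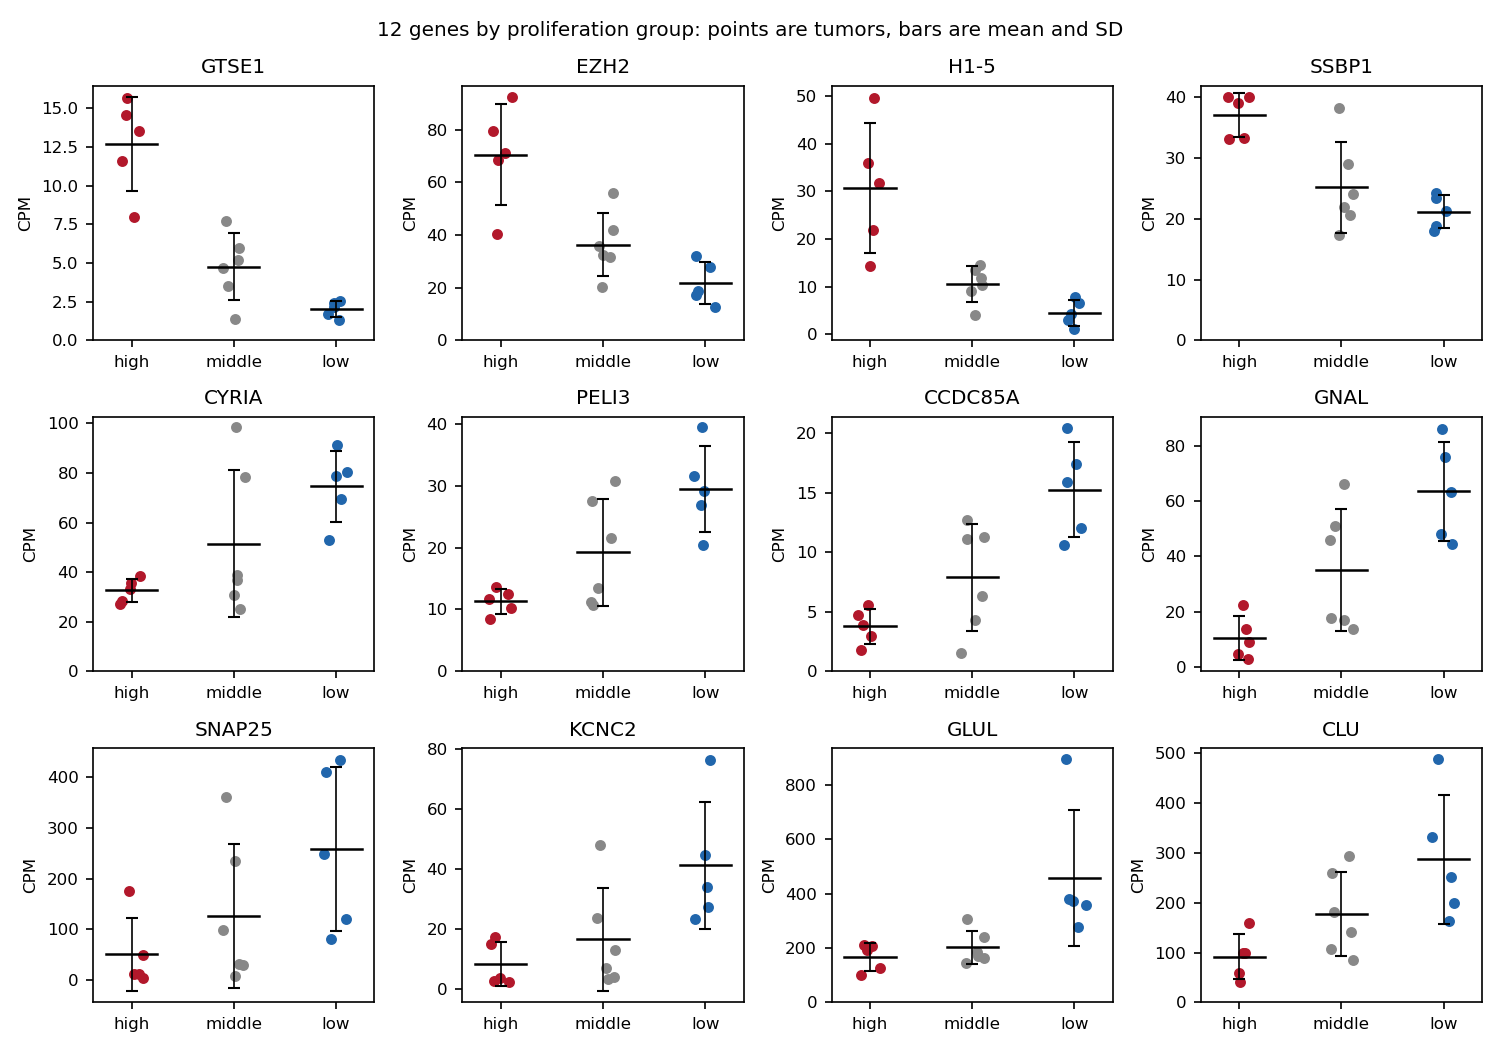
CPM (y axis) of 12 genes in the highly proliferating, middle and weakly proliferating tumors (x axis), with 1 point per tumor and the mean and SD of each group. CYRIA is at 27.3 to 38.6 CPM in all 5 highly proliferating tumors and at 52.8 CPM or above in the 5 weakly proliferating tumors, while the middle tumors cover the range of both groups.

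Several lower genes are known from neurons, a choice made after their values were seen and from no fixed list. They include the vesicle and secretion genes RAB3C, AP3B2, MADD and PTPRN2, the channel subunit CACNB1, the neuronal kinase PNCK and the splicing regulator CELF3. These calls depended on single tumors. In the 10 fits that left out 1 tumor, RAB3C, CACNB1 and CELF3 were called in 3 each, AP3B2, PTPRN2 and PNCK in 2 each and MADD in 1. All 27 neuron markers tested had a fold change below 0, with a median of -2.11, against 0.018 over all genes. The unadjusted p-value was under 0.05 for 26 of the 27, against 10.9% of all genes in this direction. That number was 14 with 6 against 6 tumors (median -1.73) and 7 with 8 against 8 (median -1.28). In these fits 2242 and 2482 of all genes had such a p-value in either direction, against 2959 in the main fit. None passed the threshold in the edgeR fit, where the smallest adjusted p was 0.0786 (KCNC2), while DESeq2 called 16, against 4.87% of all genes lower in that fit. limma-voom called 8, against 2.28%, and edgeR with the library number sets as a covariate called 2, against 0.684%.

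SNAP25, a defining vesicle fusion protein of neurons, had 12.3, 176, 4.75, 13.2 and 49.4 CPM in highly and 81.6, 410, 248, 121 and 434 CPM in weakly proliferating tumors. KCNC2, a potassium channel of fast-spiking neurons, had 2.52, 17.4, 3.63, 2.42 and 15.1 CPM against 23.4, 44.5, 34.1, 27.4 and 76.4 CPM. SYP, encoding synaptophysin, had 25.0, 77.5, 33.4, 41.9 and 49.5 CPM against 57.9, 156, 137, 69.5 and 192 CPM. French bulldog 4 was the highest of its group in all 3 genes and made the groups overlap in SNAP25 and SYP. Summed over the 27 measured markers, the neuron list ranged from 761 to 2082 CPM in highly and from 1642 to 4802 CPM in weakly proliferating tumors, and no marker of the list was at 0 in all tumors. Without French bulldog 4, edgeR called 11 neuron markers lower, against 1.81% of all genes in that fit.

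With the mean z-score of the neuron list as a covariate, edgeR called 0 genes in either direction, and 795 genes had an unadjusted p-value under 0.05. All 225 called genes kept the sign of their fold change in that fit. Mitosis genes, which share biology with the score and carry no test, had a median of 1.66 in it. CYRIA had -0.97, PELI3 -1.07, CCDC85A -1.39 and GNAL -1.49 on the log2 scale, against -1.23, -1.42, -2.04 and -2.64 without the covariate. The shift varied among the called lower genes. TMEM130 went from -1.83 to -0.79 and DGKG from -2.52 to -1.11 with the covariate, while TTC39A went from -1.38 to -1.58. In the middle tumors the neuron markers went the other way, with a median difference of 0.55 between the upper and lower 3. The part of neuronal RNA in the lower genes was not tested.

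Of 17 astrocyte markers tested, 16 had a fold change below 0, the median was -0.94, and 7 were lower at an unadjusted p-value under 0.05, against 10.9% of all genes. edgeR called 0 of them, DESeq2 3 (4.87% of all genes) and limma-voom 2 (2.28%). With the score as a continuous covariate over 16 tumors, edgeR called 4 lower, against 2.11% of all genes in that fit. Without French bulldog 1 the median was -1.30, and 13 were lower at an unadjusted p-value under 0.05. GLUL, the glutamine synthetase of astrocytes, had 126, 213, 101, 194 and 207 CPM in highly and 372, 382, 279, 358 and 895 CPM in weakly proliferating tumors. CLU, which encodes the secreted chaperone clusterin, had 40.1, 100, 59.7, 159 and 99.8 CPM against 333, 251.9, 162, 200 and 488 CPM. The groups did not overlap in either gene, but neither passed the threshold (GLUL -1.47 ± 0.34, edgeR adjusted p = 0.0590; CLU -1.68 ± 0.40, edgeR adjusted p = 0.0635). The summed level of the list was 1197 to 5829 CPM in highly and 2688 to 8841 CPM in weakly proliferating tumors, with French bulldog 1 the highest of the former and French bulldog 9 of the latter.

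**Figure D4:**
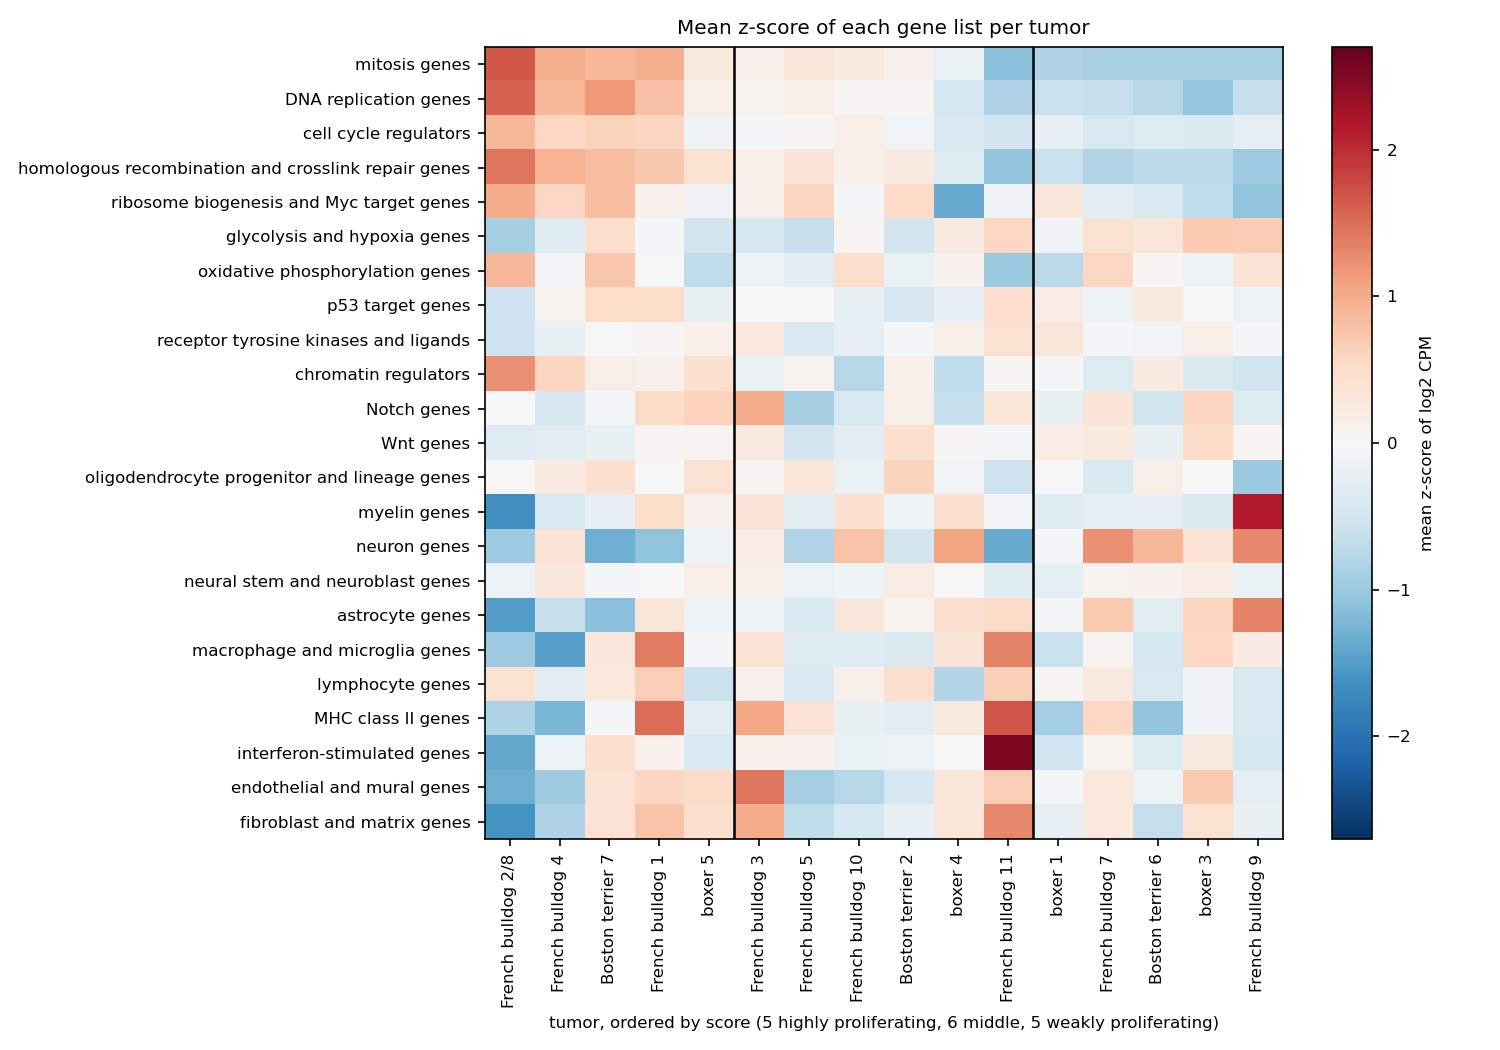
Mean z-score of log2 CPM of each gene list (rows) in the 16 tumors (columns, ordered by score), with lines between the groups. The mitosis list falls from 1.67 in French bulldog 2/8 to -0.882 in French bulldog 9, with French bulldog 11 lower still at -1.10, whereas the neuron list is at 0.387 in French bulldog 4, at -1.36 in French bulldog 11 and at 1.30 in French bulldog 9.

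Of the genes of the oligodendrocyte lineage, edgeR and limma-voom called 0 and DESeq2 called 1 higher (SCRG1, 0.92 on the log2 scale, DESeq2 adjusted p = 0.0210), against 2.38% of all genes. Of 19 tested, 17 had a fold change above 0, with a median of 0.38, and 4 were higher at an unadjusted p-value under 0.05, against 7.19% of all genes. That number was 2 without French bulldog 2/8, 9 or 7. NKX2-2, a transcription factor of oligodendrocyte progenitors, had 138, 118, 62.3, 68.1 and 73.0 CPM in highly and 48.4, 58.5, 54.7, 57.1 and 22.0 CPM in weakly proliferating tumors (0.89 ± 0.30, edgeR adjusted p = 0.148). SOX10 had 334 to 456 CPM against 160 to 339 CPM. Myelin genes of mature oligodendrocytes had a median of -0.66, which depended on single tumors: the median was 0.25 without French bulldog 9 and -1.27 without French bulldog 1. OPALIN had 41.8 CPM in French bulldog 9 and 0.110 to 1.66 CPM in the other 9.

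Among growth pathways, edgeR called no gene of ribosome biogenesis or glycolysis. Of 30 ribosome biogenesis and Myc target genes, 29 had a fold change above 0, with a median of 0.38. edgeR, DESeq2 and limma-voom each called 0 of them in the comparison of 5 against 5, and edgeR called 4 higher with the continuous score, against 2.29% of all genes in that fit. Of the 30, 11 were higher at an unadjusted edgeR p-value under 0.05, against 7.19% of all genes. That number was 4 without French bulldog 2/8, 6 without French bulldog 9 or Boston terrier 6, and 7 without Boston terrier 7 or boxer 3. NOP56, a core protein of box C/D small nucleolar ribonucleoproteins, had 115, 115, 121, 89.4 and 95.3 CPM in highly and 84.7, 77.0, 79.6, 64.0 and 53.2 CPM in weakly proliferating tumors (0.55 ± 0.17, edgeR adjusted p = 0.133). MYC itself had 21.0 to 69.1 CPM against 6.30 to 92.9 CPM, with boxer 1 the highest. Of 22 genes of glycolysis and hypoxia, 19 had a fold change below 0, 7 were lower at an unadjusted p-value under 0.05, against 10.9% of all genes, and the median was -0.37. DESeq2 called 2 of these genes lower (4.87% of all genes) and limma-voom 0, and edgeR called 2 of 18 tested with the continuous score (2.11%). Without Boston terrier 7 the median was -0.65, and without French bulldog 9 the number at an unadjusted p-value under 0.05 was 4. In the latter fit 2141 of all genes had such a p-value in either direction. PFKFB3, which drives glycolytic flux, had 60.0, 75.3, 93.3, 116 and 111 CPM against 153, 152, 115, 151 and 155 CPM (-0.70 ± 0.21, edgeR adjusted p = 0.113). Oxidative phosphorylation and p53 target genes had medians of 0.024 and -0.0069.

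Receptor tyrosine kinases and their ligands included very high values in single tumors. IGF2, a fetal growth factor, had 7956 CPM in French bulldog 1 and at most 23.2 CPM in the other 9 tumors of the groups. PDGFRA, the receptor that drives oligodendrocyte progenitors, had 5126, 1716, 1750, 283 and 831 CPM in highly and 527, 896, 1387, 384 and 171 CPM in weakly proliferating tumors. EGFR had 2.68 to 23.8 CPM against 4.82 to 133 CPM. The groups overlapped in all 3 genes, and 0 of the 30 genes of this list passed the threshold by edgeR, with 1 higher and 3 lower at an unadjusted p-value under 0.05, where 7.19% and 10.9% of all genes stood.

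Markers of immune and vascular cells were spread over both groups. Macrophage and microglia markers had a median of 0.082 over 25 genes, endothelial and mural markers 0.052 over 26, fibroblast and matrix genes 0.34 over 17, and MHC class II genes 0.35 over 6. Interferon-stimulated genes had a median of 0.17 over 15, Notch genes -0.022 over 9, Wnt genes -0.13 over 14, and neural stem and neuroblast genes -0.14 over 10. None of these genes passed the threshold in the edgeR fit. CD163, a scavenger receptor of macrophages, had 2.69 to 40.6 CPM in highly and 6.55 to 22.5 CPM in weakly proliferating tumors. Only 6 of 25 lymphocyte genes in the table could be tested, with a median of 0.14, and CD3E had at most 6 counts in any tumor. PTGDS, made by leptomeninges and oligodendrocytes, was the 1 meningeal gene tested (11.2 to 103 CPM against 47.8 to 403 CPM, edgeR adjusted p = 0.166), and none of 6 erythrocyte genes could be tested.

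The position of the genes was also compared, a choice made after the values were seen. Of the 11537 genes tested with a symbol, 11099 could be placed on 1 chromosome from RefSeq gene positions on UU_Cfam_GSD_1.0, another assembly than that of the study. Chromosomes 13 and 16 had the highest median log2 fold changes, 0.41 and 0.33. On chromosome 13, 74.7% of 221 genes had a fold change above 0, 21.3% were higher at an unadjusted p-value under 0.05, and 2 were called higher. Chromosome 16 was not chosen for its number of calls. Among its 222 genes tested, 8 were called higher, against 10 of 288 on chromosome 15 and 0.904% over all genes. The 8 higher genes were CENPU, ERI1, EZH2, MCPH1, NCAPG2, NUP205, SSBP1 and WRN. Another, PTPRN2, was the 1 gene called lower on chromosome 16, against 0.470% over all genes. On chromosome 16, 75.7% of the genes had a fold change above 0, against 50.8% of all placed genes, and 26.1% were higher at an unadjusted p-value under 0.05, against 6.45%. The median of chromosome 16 was 0.33 also without the genes of the cell cycle lists. SSBP1, the mitochondrial single-strand binding protein, had 33.1, 40.1, 33.3, 39.0 and 40.0 CPM in highly and 23.5, 18.9, 24.2, 21.3 and 17.9 CPM in weakly proliferating tumors. WRN, the helicase lost in Werner syndrome, had 43.4, 47.6, 58.6, 69.2 and 38.7 CPM against 22.6, 14.9, 32.4, 21.9 and 23.3 CPM. Of the 10 fits that left out 1 tumor, SSBP1 was called in 1, ERI1 and NUP205 in 2 each, and WRN and MCPH1 in 4 each. EZH2 was called in 8, and CENPU and NCAPG2 in 10 each.

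The level of a chromosome in a tumor was taken as the median log2 difference of its genes from their mean over 16 tumors. The level of chromosome 16 was -0.131, 0.311, 0.182, 0.50 and 0.0104 in highly and -0.198, -0.317, -0.00843, -0.159 and -0.213 in weakly proliferating tumors. French bulldog 2/8 lay within the range of the weakly proliferating tumors, and the other 4 lay above it. The means differed by 0.354 (two-sided exact permutation p = 0.0159, or 0.619 when adjusted over 39 chromosomes). The difference was 0.272 to 0.397 when 1 tumor was left out, 0.492 in the French bulldogs and 0.218 in the comparison breeds. Chromosome 13, which holds PDGFRA and MYC, was at 0.672, 0.531, 0.116, -0.366 and 0.236 against 0.118, 0.130, -0.261, -0.218 and -0.510 (exact permutation p = 0.143, or 0.902 when adjusted). Chromosome 22, which holds RB1, was at -0.345, -0.191, 0.481, -0.151 and -0.324 against 0.268, -0.0407, 0.405, -0.0855 and 0.392 (exact permutation p = 0.127, or 0.902 when adjusted). On chromosome 22, 12.6% of 119 genes had a fold change above 0. The groups overlapped on all 3 chromosomes, and neighbouring genes are not independent. DNA copy number was not measured.

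**Figure D5:**
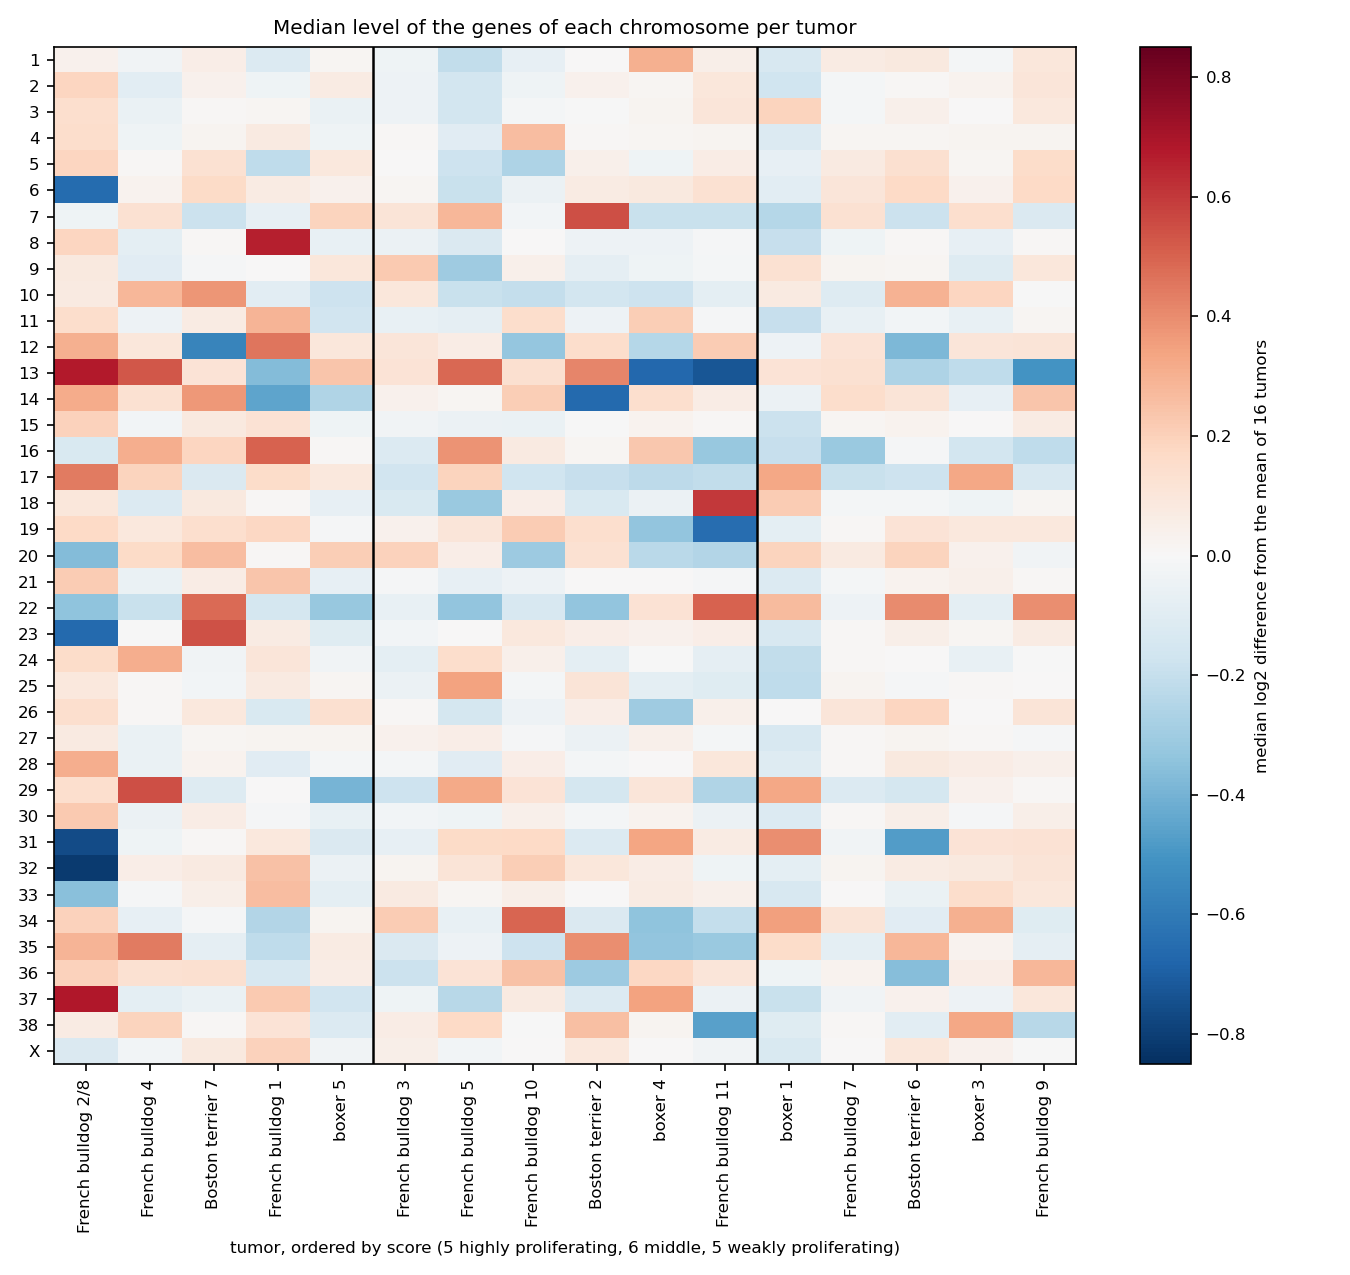
Median log2 difference of the genes of each chromosome (rows) from their mean over 16 tumors, in each tumor (columns, ordered by score). Chromosome 13 reaches 0.672 in French bulldog 2/8 and -0.729 in French bulldog 11 while chromosome 1 lies between -0.211 and 0.299 in all 16 tumors.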

How the data were processed

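RNASeq was performed on formalin-fixed, paraffin-embedded canine HGO. The authors removed ribosomal RNA, sequenced paired reads, trimmed them with Trimmomatic 0.33, aligned them with HISAT2 2.1.0 to canFam6 and counted them per gene with featureCounts, and the deposited values are raw counts. Strand and multimapping settings of the counting were not given in the sources used here. From these counts, 18 libraries were reduced to 16 tumors and scored on log2 CPM (TMM, prior count 2). The 5 highest and 5 lowest tumors were compared with edgeR 4.0.16 (R 4.3.3) by quasi-likelihood F test after filterByExpr, without the score genes. Alternatives used DESeq2 1.42.0 and limma 3.58.1 (closing section). The scripts were tested on simulated data.

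Tumors, gene lists and rules were chosen with earlier results of these data known. Named genes were up to 4 per list and direction by p-value, the 12 smallest adjusted p-values and the 12 largest fold changes per direction outside the cell cycle lists and the small RNAs, and the 12 highest correlations with the score. Other named genes were chosen after their values were seen. Lists were described by counts and medians without a test.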

Additional observations from a re-analysis of the deposited data

Results flagged for a closer look

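In 17 of 92 groups of 5 tumors examined (44 genes and 2 library values in both groups), 1 tumor stood apart from the other 4 by more than Dixon's critical value of 0.71 for the gap as a share of the range. Chance gives about 1 in 20, but part of the genes were named for their values and CPM are skewed upward, so no excess is read from the number.

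French bulldog 2/8 stood apart upward in 4 cell cycle genes. It had 176.6 CPM of KNL1 against 78.65 in the next tumor, 57.81 CPM of MCM10 against 26.27, 158.2 CPM of BRCA2 against 83.4 and 37.39 CPM of MYBL2 against 17.54.

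French bulldog 1 had 1166 CPM of CCND1 (next 179.1), 7956 CPM of IGF2 (next 3.788) and 40.62 CPM of CD163 (next 13.05). French bulldog 4 had 175.6 CPM of SNAP25 (next 49.37).

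Among weakly proliferating tumors, French bulldog 9 had 605.1 CPM of ANLN (next 41.82), 41.77 CPM of OPALIN (next 1.579) and 895.2 CPM of GLUL (next 381.8). Its NKX2-2, 21.97 CPM, was below the next lowest, 48.37 CPM. Boxer 1 had 132.8 CPM of EGFR (next 36.86), 92.89 CPM of MYC (next 27.08) and 23.22 CPM of IGF2 (next 3.312). French bulldog 7 had 22.52 CPM of CD163 (next 8.806), and Boston terrier 6 had the lowest PFKFB3, 114.7 CPM (next 151).

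French bulldog 6, which entered neither group, had a proliferation score of 1.875, above all 16 tumors. What sets these tumors apart was not tested.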

How the results depend on the processing

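All 225 called genes kept their direction under DESeq2, limma-voom and the neuron covariate, which use the same 10 tumors, while the counts changed. In order of higher and lower genes, DESeq2 called 466 and 954, limma-voom 213 and 374, the score as a continuous covariate 314 and 289, the 16 tumors with a middle group 141 and 26, 6 against 6 tumors 134 and 17, 8 against 8 tumors 93 and 8, French bulldog 6 kept 170 and 37, and breed as a covariate 124 and 133. Chosen after the data were seen, AURKB left out of the score gave 120 and 17, and the neuron list as a covariate, like boxers and Boston terriers alone, 0 and 0 (795 and 1393 unadjusted). The sets of library numbers as a covariate, also chosen then, gave 71 and 112. French bulldogs alone gave 0 and 0 (2518 unadjusted). Leaving out 1 tumor gave 76 to 209 higher and 11 to 303 lower. Other normalizations and filters, each library of French bulldog 2/8 alone, 4 against 4 tumors and groups from the mitosis list gave 138 to 168 higher and 70 to 103 lower.

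The label numbers did not pair tumors: for the shared numbers 1 and 7 the deviations correlated at 0.027 and -0.076. The replicate block over these 4 tumors gave 0 and 0 calls by edgeR (1562 unadjusted).

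Every alternative was followed for 224 genes, the 181 called genes of a unique symbol and 43 others, of the naming rule or named in the text. Of their fold changes, 5440 kept direction and call, 53 passed the threshold anew, 2012 lost it and 35 turned in direction. IGF2 was at -1.631 with the neuron covariate and -4.757 in boxers and Boston terriers alone, and ranged from -2.354 without French bulldog 1 to 9.312 without boxer 1. With the neuron covariate, OPALIN was at 0.1014, ERMN at 0.649, THY1 at 0.1134, CCND1 at -0.1448, SNAP25 at 0.1001, ANLN at 0.6301, CIT at 0.162, RBL2 at 0.0336, MYC at -0.3111, CD163 at -0.1327 and CDKN1A at 0.1087. With the replicate block, ERMN was at 0.0876, ANLN at 0.4411, PDGFRA at -0.005868, MYC at -1.248, RB1 at 0.1599 and CDKN1A at 0.6958. In boxers and Boston terriers alone, ANLN was at 0.8251, MYC at -0.6314 and CDKN1A at 0.6071. With French bulldog 6 kept, ADM was at 0.02776 and CDKN1A at 0.4503. CCND2 was at 0.1026 with groups from the mitosis list, EGFR at 0.3566 with the library number sets, and CD163 at -0.112 under limma-voom and -0.1415 with AURKB left out of the score. Without 1 tumor, ANLN ranged from -1.76 to 0.6515 (without French bulldog 9), MYC from -0.0465 (without French bulldog 2/8) to 1.275, CD163 from -0.5134 (without French bulldog 1) to 0.8683, and CDKN1A from -0.5369 to 0.1233, above 0 without French bulldog 2/8, 9 or 7. Of the other 100 genes of the naming rule, none of them called, 19 turned in French bulldogs alone, 16 in boxers and Boston terriers alone and 24 with the neuron covariate. The cause was not tested. At 8212452 to 17924670 counts, ratios of genes at 3 counts or fewer had wide intervals, as for HPN (10.5 to 50.3).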

Other observations

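French bulldogs 2 and 8 had log2 CPM that correlated at 0.985 across genes, against a median of 0.961 and a highest value of 0.977 over the other pairs of libraries. Their scores taken singly were 1.53 and 1.49. AURKB was at 20.2 and 15.2 CPM in them, and MKI67 at 643 and 692 CPM.

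French bulldog 11 entered neither group. It had the lowest mean z-score of the mitosis list (-1.10) and of the neuron list (-1.36) and the highest of the interferon-stimulated genes (2.53, against -1.38 to 0.426 in the other 15 tumors). It also had the highest EGFR (208 CPM), and its PDGFRA was at 210 CPM.

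Single chromosomes stood far from 0 in single tumors. The level of chromosome 8 was 0.663 in French bulldog 1, and -0.193 to 0.181 in the others. French bulldog 2/8 had -0.652 on chromosome 6, -0.661 on 23, -0.759 on 31, -0.812 on 32 and 0.683 on 37.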
